A study of Mus musculus with 9 samples.

Results

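The genes described here handle acyl lipids, the fatty acids that a cell activates, shortens, lengthens, stores or releases, and build the peroxisomes in which part of this work is done. They were chosen by name alone: every gene of the deposited table whose mouse symbol starts with Acad, Acaa, Acot, Acox, Acsl, Acsm, Acss, Elovl, Fads, Hadh, Hsd17b, Cpt1, Cpt2, Ech, Eci, Decr, Pex or Pnpla. This gave 82 of the 14052 genes, and no symbol starting with Cpt2 was among them. Some names reach beyond acyl lipids, such as several Hsd17b enzymes that act on steroids. The name starts themselves were chosen with earlier results of these data known.

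Poly(A) RNA of mouse kidney cortex was sequenced in 9 libraries from animals about 1 year old on a normal diet. There were 5 tumour areas (L4, R2, R3, R4 and R5), taken from mice of the genotype Vhl F/F Pbrm1 F/F Ksp-Cre, in which both genes are floxed, on a mixed background of C57BL/6, BALB/c and 129. The 4 normal areas (L1, L2, R1 and R2) came from wild-type C57BL/6 animals. Ksp is the promoter of Cdh16, which is active in kidney tubule epithelium, so the recombinase is made there and not in every cell of an area. A single number is given in the descriptions of the 5 tumour areas and a different one in those of the 4 normal areas. Each set of areas may thus come from 1 animal, in which case p-values measure only how areas vary. Genotype, strain, animal and tumour cannot be told apart, and the labels used here give no sex.

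Fatty acids are first joined to coenzyme A by acyl-CoA synthetases. Long chains then enter mitochondria through the carnitine shuttle and are shortened by repeated rounds of dehydrogenation, hydration, a further dehydrogenation and thiolytic cleavage, while peroxisomes shorten very long and branched chains with their own oxidases. Proximal tubule cells, the main reabsorbing cells of the cortex, are known to draw much of their energy from this oxidation, and the nuclear receptor PPAR alpha is known to switch on many of its genes.

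Counted reads ran from 5246708 to 6645050 in tumour areas and from 5143527 to 8250261 in normal areas, and a limit of 3 counts corresponds to 0.364 to 0.583 CPM (counts scaled to a fixed library total), which covers counting error only. Vhl averaged 60.0 ± 12 CPM in tumour areas and 104 ± 4.69 CPM in normal areas, with no overlap. Pbrm1 averaged 136 ± 21.5 CPM in tumour areas and 155 ± 10.1 CPM in normal areas, with overlap, and reads of the deleted exons could not be separated in either gene. Summed markers of proximal tubule were present in both groups, at 7305 to 14796 CPM in tumour areas and 29783 to 32014 CPM in normal areas. Below, CPM are scaled by the trimmed mean of M values (TMM), errors are SD with n = 5 tumour and n = 4 normal areas, single values follow the area orders given above, and fold changes are log2 values of tumour over normal with their standard error (SE). In bulk RNA, fewer cells of a type and less RNA per cell cannot be told apart.

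More of the tested genes fell in tumour areas than rose. Of the 82 genes, 19 had no count in any library, 19 had too few counts to test and 44 were tested. By edgeR's quasi-likelihood test with Benjamini-Hochberg adjustment over all 7020 tested genes, 6 of the 44 were higher (13.6%) and 25 were lower (56.8%) in tumour areas, where 39.3% of all tested genes were higher and 35.3% were lower. The median log2 fold change was -0.54 for the 44 genes and 0.06 for all tested genes. At 2-fold or more, 3 were higher and 13 lower, against 17.3% higher and 12.6% lower of all tested genes. The groups did not overlap for 29 of the 44 genes (65.9%), close to the 67.8% of all tested genes. Scaling by library size alone moves the median of all tested genes by 0.29 to 0.35 and splits the calls into 13 higher and 16 lower, so that 44.8% of the calls were higher, against 19.4% with TMM. Of the calls over all genes 68.9% were higher with library size alone, against 52.7% with TMM. No called gene of the 44 changed direction under library size alone.

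**Figure D1:**
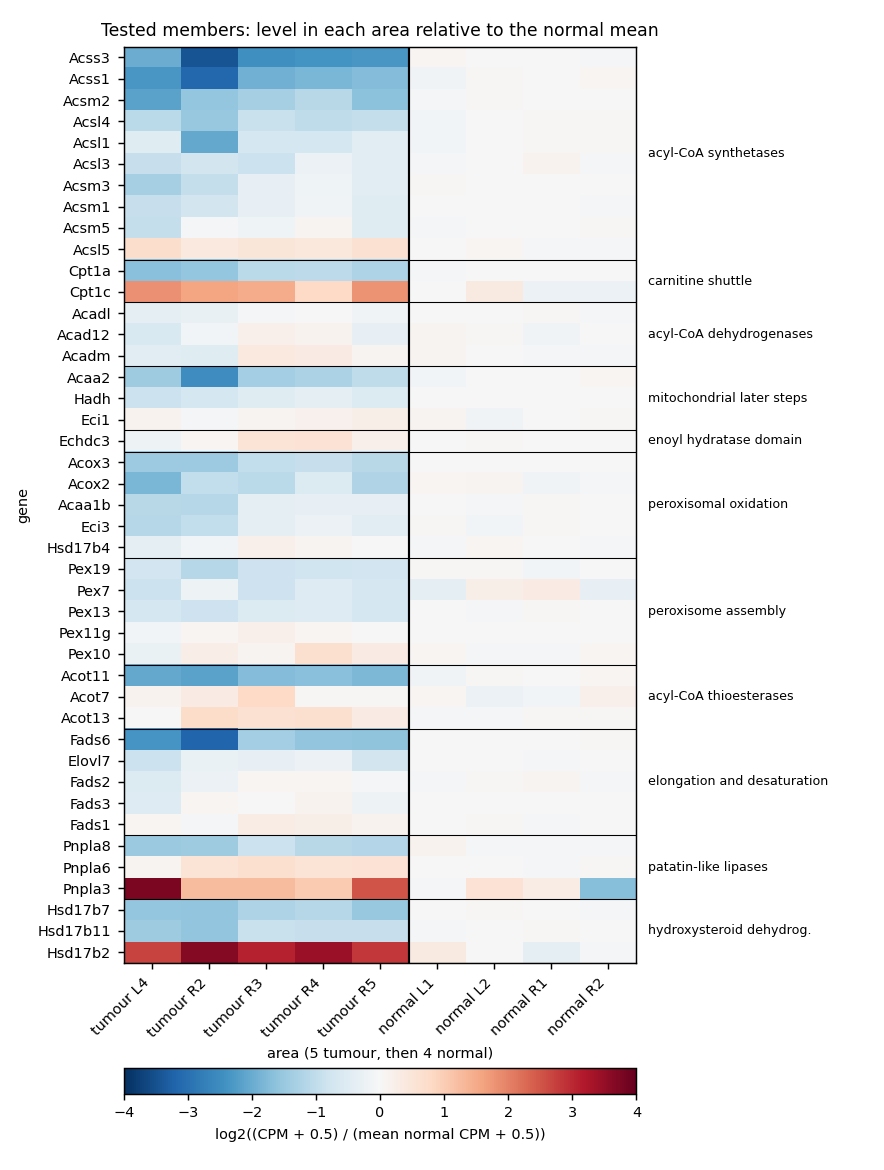
Level of 43 of the 44 tested genes (rows, grouped by role) in each of the 5 tumour and 4 normal areas (columns), as log2 of CPM plus 0.5 over the mean normal CPM plus 0.5. Blue cells fill most of the tumour columns, with Hsd17b2, Pnpla3 and Cpt1c as the reddest rows, and the normal columns are nearly white.

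Of the 25 lower genes, 8 were acyl-CoA synthetases, 4 belonged to peroxisomal oxidation and 4 to peroxisome assembly, and the others were spread over 6 further roles. No tested acyl-CoA dehydrogenase passed in the main edgeR fit (TMM, all areas, no covariate), though Acadl passed as lower under some alternatives.

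Acyl-CoA synthetases, which activate fatty acids of different lengths, held 8 of the 25 lower genes. Of the 12 listed genes, 10 were tested, of which 1 was higher, 8 were lower and 1 did not pass. Acss1 (ENSMUSG00000027452), the mitochondrial acetyl-CoA synthetase, had 186, 107, 250, 263 and 283 CPM in tumour areas, against 853, 975, 935 and 998 CPM in normal areas. Every tumour area lay far below every normal one, with tumour R2 the lowest. The means were 218 ± 72 CPM in tumour and 941 ± 63.6 CPM in normal areas, a log2 fold change of -2.11 (SE 0.23, edgeR adjusted p = 1.59e-05).

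Acsm2 (ENSMUSG00000030945), a mitochondrial synthetase for medium-chain acids, gave the most reads of all the genes. It had 1598, 2456, 2841, 3277 and 2266 CPM in tumour areas, against 6906, 7322, 7085 and 7099 CPM in normal areas. The normal areas were nearly equal, and the tumour areas spread about their mean without reaching them (2487 ± 630 CPM in tumour, 7103 ± 170 CPM in normal areas; -1.51, SE 0.18, edgeR adjusted p = 2.16e-05). Acsm2 made up 17.8 to 24.0% of the summed CPM of the 82 genes in tumour areas and 33.0 to 34.0% in normal areas. That sum was 11619 ± 2049 CPM in tumour and 21272 ± 257 CPM in normal areas, and without Acsm2 it was 9131 ± 1490 CPM in tumour and 14169 ± 96.8 CPM in normal areas.

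On chromosome 7 Acsm5, Acsm2, Acsm1 and Acsm4 are neighbours in the annotation, and they differed. Acsm1 fell by 0.50 on the log2 scale (edgeR adjusted p = 0.00724), less than Acsm2. Acsm5 (ENSMUSG00000030972) had 95.6, 181, 164, 202 and 133 CPM in tumour areas, against 182, 183, 189 and 190 CPM in normal areas. Its tumour areas lay on both sides of the normal ones, and it did not pass (-0.27, SE 0.18, edgeR adjusted p = 0.193). With the area letter as a covariate it passed as lower (-0.41, edgeR adjusted p = 0.0446). Acsm4 had 1 count in all. Acsm5 and the other genes named beside a relative here were chosen after their values were seen.

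Acss3 (ENSMUSG00000035948), a mitochondrial synthetase that prefers propionate, had the largest decrease of the tested genes. It had 3.2, 0.839, 2.18, 2.32 and 2.43 CPM in tumour areas, against 14.9, 14, 14 and 13.8 CPM in normal areas (-2.66, SE 0.24, edgeR adjusted p = 4.25e-06). The groups were wide apart, but 33.9% of its exon bases overlap the antisense gene Ppfia2. The library kit does not mark strand, so reads from that overlap cannot be assigned to either gene. Of the 50-base stretches in its longest transcript, 51.4% also occur in other genes, most often Ppfia2.

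The long-chain synthetases went both ways. Acsl4 (ENSMUSG00000031278), which prefers arachidonate, had 136, 99.8, 154, 141 and 149 CPM in tumour areas, against 267, 291, 298 and 296 CPM in normal areas (-1.08, SE 0.11, edgeR adjusted p = 8.47e-06). Acsl1 (ENSMUSG00000018796), a major form in oxidative tissues, had 172, 58.6, 149, 150 and 179 CPM in tumour areas, against 227, 247, 249 and 250 CPM in normal areas (-0.78, SE 0.25, edgeR adjusted p = 0.0163). Tumour R2 stood well below the other tumour areas for Acsl1, and its call was lost with library size alone. Acsl5 (ENSMUSG00000024981), a form of mitochondria and endoplasmic reticulum, was the only one of the 10 tested synthetases to rise. It had 32.9, 26.8, 28.1, 27.4 and 31.3 CPM in tumour areas, against 20.1, 21.3, 19.6 and 19.6 CPM in normal areas, without overlap (0.54, SE 0.09, edgeR adjusted p = 0.000289). Of the exon bases, 8.3% in Acsl5 overlap the antisense gene Zdhhc6 and 9.9% in Acsl1 overlap the antisense gene Gm45244. Acsl3 fell by 0.64 (edgeR adjusted p = 0.00441). Acsm3 was lower by a log2 fold change of -0.58 (edgeR adjusted p = 0.0247), with 39.7% of its exon bases overlapped by the antisense gene Eri2, and its adjusted p was 0.0776 with the R areas alone, 0.0551 without tumour R2 and 0.0521 without normal L1.

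The carnitine shuttle was represented by a pair of tested genes that moved in opposite directions. Cpt1a (ENSMUSG00000024900) encodes the liver form of carnitine palmitoyltransferase at the outer mitochondrial membrane, the step that limits entry of long chains. It had 757, 822, 1120, 1145 and 1008 CPM in tumour areas, against 2326, 2405, 2430 and 2396 CPM in normal areas. All tumour areas were below all normal ones, at 970 ± 175 CPM in tumour and 2389 ± 44.6 CPM in normal areas (-1.30, SE 0.12, edgeR adjusted p = 5.47e-06). Cpt1c (ENSMUSG00000007783), known as a brain form with little activity, had few reads. It had 5.01, 4.20, 3.81, 2.18 and 4.87 CPM in tumour areas, against 1.08, 1.5, 0.830 and 0.810 CPM in normal areas, again without overlap (1.87, SE 0.32, edgeR adjusted p = 0.000315). Of its exon bases, 6.5% overlap the antisense gene 6530437J22Rik. Cpt1b, the muscle form, had no count.

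The windows around the start sites of 4 called genes are printed because they hold AGGTCA or its reverse complement TGACCT, the half-site that nuclear receptors such as PPAR alpha are known to bind, and because Cpt1a and Cpt1c hold it while moving in opposite directions. The windows run from 250 bases before to 50 bases after the start (RefSeq, GRCm38.p6, 5′ to 3′ along the gene), and capitals mark the half-site.
Cpt1a, chr19:3323051-3323350, plus strand: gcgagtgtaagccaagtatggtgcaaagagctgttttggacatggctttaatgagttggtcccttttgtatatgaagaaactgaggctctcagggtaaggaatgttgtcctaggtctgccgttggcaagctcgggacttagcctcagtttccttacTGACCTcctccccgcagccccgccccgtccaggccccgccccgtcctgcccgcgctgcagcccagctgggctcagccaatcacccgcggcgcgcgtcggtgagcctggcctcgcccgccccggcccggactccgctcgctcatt
Cpt1c, chr7:44974802-44975101, minus strand: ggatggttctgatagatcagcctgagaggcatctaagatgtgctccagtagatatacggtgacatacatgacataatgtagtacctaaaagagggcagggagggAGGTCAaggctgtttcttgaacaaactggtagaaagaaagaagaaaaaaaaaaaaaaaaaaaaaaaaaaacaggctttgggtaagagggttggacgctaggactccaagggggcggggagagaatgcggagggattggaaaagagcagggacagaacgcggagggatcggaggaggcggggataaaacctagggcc
Acsm1, chr7:119617562-119617861, plus strand: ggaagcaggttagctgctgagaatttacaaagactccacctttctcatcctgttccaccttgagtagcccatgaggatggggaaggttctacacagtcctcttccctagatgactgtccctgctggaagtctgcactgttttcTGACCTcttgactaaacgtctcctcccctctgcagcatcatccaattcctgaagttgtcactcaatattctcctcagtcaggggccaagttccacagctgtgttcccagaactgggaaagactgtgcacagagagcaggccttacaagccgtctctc
Fads6, chr11:115297513-115297812, minus strand: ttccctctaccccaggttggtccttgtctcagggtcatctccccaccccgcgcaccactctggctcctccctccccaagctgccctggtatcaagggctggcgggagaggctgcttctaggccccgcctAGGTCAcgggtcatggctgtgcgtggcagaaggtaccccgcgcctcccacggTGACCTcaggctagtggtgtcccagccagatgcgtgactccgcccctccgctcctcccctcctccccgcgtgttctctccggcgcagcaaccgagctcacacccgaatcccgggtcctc
The half-site starts 94 bases upstream of the start in Cpt1a, 146 in Cpt1c, 107 in Acsm1, and 121 and 69 in Fads6.

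Such windows were found for 70 of the 82 genes, 86 windows in all. The half-site, searched on both strands, was in 14 of the 86 windows (16.3%) and in 16.3% of all 32851 windows. Counted by gene, where a match in any window of the gene sufficed, it was in 13 of 70 genes. These held 1 of 4 higher, 3 of 21 lower and 3 of 11 uncalled tested genes with a window. Such a count by gene was not made for all genes, so the percentages of windows are no background for it. The exact direct repeat of this half-site with 1 base between the copies was in none of the 86 windows and in 13 of all windows. Repeats with a changed letter were not searched for, and the Fads6 window holds AGGTCA and GGGTCA with 1 base between them. The cores of the hypoxia response element were searched in the same way: ACGTG was in 14% of the 86 windows and 19.6% of all, and GCGTG in 44.2% of the 86 windows and 32.4% of all. By gene, GCGTG was in 36 of 70, which held 3 of 4 higher, 12 of 21 lower and 7 of 11 uncalled tested genes with a window. This count too has no background over all genes. A match describes letters in a window and not a bound site.

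Acyl-CoA dehydrogenases, which take the first hydrogens in each mitochondrial round, had 3 tested of 7 genes. In the main edgeR fit 0 passed in either direction, also at an unadjusted p under 0.05. Acadm (ENSMUSG00000062908), the medium-chain enzyme, had 1140, 1122, 2058, 1938 and 1675 CPM in tumour areas, against 1692, 1544, 1495 and 1506 CPM in normal areas. The tumour areas lay on both sides of the normal ones, and the means were 1587 ± 438 CPM in tumour and 1559 ± 90.8 CPM in normal areas (0.03, SE 0.18, edgeR adjusted p = 0.908). Acadl, the long-chain enzyme, had a log2 fold change of -0.17 (SE 0.08, edgeR adjusted p = 0.0786) and passed as lower under 4 of the alternatives. With edgeR these were RLE factors (adjusted p = 0.0442), the area letter as a covariate (adjusted p = 0.0383) and leaving out tumour R4 (adjusted p = 0.0281). DESeq2 was the other (adjusted p = 0.0392). Acad12 had -0.12 (edgeR adjusted p = 0.503).

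Later mitochondrial steps had 3 tested of 6 genes, of which 2 were lower. Acaa2 (ENSMUSG00000036880), the mitochondrial thiolase, had 169, 80.4, 175, 186 and 226 CPM in tumour areas, against 416, 459, 453 and 480 CPM in normal areas (-1.43, SE 0.22, edgeR adjusted p = 0.000186). Tumour R2 was the lowest, and no tumour area came near the normal ones. Hadh (ENSMUSG00000027984), the hydroxyacyl-CoA dehydrogenase for shorter chains, had 930, 1034, 1197, 1306 and 1167 CPM in tumour areas, against 1664, 1687, 1703 and 1697 CPM in normal areas (-0.58, SE 0.09, edgeR adjusted p = 0.000244). Eci1, an isomerase for unsaturated chains, had 0.14 (SE 0.07, edgeR adjusted p = 0.1). It passed as higher with upper quartile factors (edgeR adjusted p = 0.0223), library size alone (edgeR adjusted p = 0.000436) and without tumour R2 (edgeR adjusted p = 0.0241). Echdc3, of the enoyl-CoA hydratase domain group, had 68.5, 85.1, 116, 120 and 92.7 CPM in tumour areas, against 78.8, 82.2, 78.7 and 79.2 CPM in normal areas. It did not pass (0.27, SE 0.15, edgeR adjusted p = 0.114), but without tumour L4 it was 0.39 (edgeR adjusted p = 0.0061).

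Peroxisomal oxidation had 5 tested of 9 genes, with 4 lower. Acox3 (ENSMUSG00000029098), an oxidase for branched chains, had 286, 285, 390, 408 and 359 CPM in tumour areas, against 779, 775, 776 and 774 CPM in normal areas. The normal areas were within a few CPM of each other, and all tumour areas were well below them (346 ± 57.7 CPM in tumour, 776 ± 2.10 CPM in normal areas; -1.17, SE 0.11, edgeR adjusted p = 5.29e-06). Acox2 (ENSMUSG00000021751), an oxidase for bile acid intermediates and branched chains, had 12, 21.6, 20.3, 29.6 and 18.6 CPM in tumour areas, against 46.1, 47.7, 39.5 and 41.7 CPM in normal areas (-1.10, SE 0.20, edgeR adjusted p = 0.000618). Acaa1b, a peroxisomal thiolase, fell by 0.61 (edgeR adjusted p = 0.00976) and shares 46.2% of its 50-base stretches with its near copy Acaa1a. Eci3, a peroxisomal isomerase, fell by 0.59 (edgeR adjusted p = 0.00961) and shares 15.2% with Eci2, so both are uncertain, and both calls were lost with library size alone. Hsd17b4, the bifunctional enzyme that follows the oxidases, averaged 110 ± 16.7 CPM in tumour and 112 ± 3.95 CPM in normal areas (-0.03, SE 0.10, edgeR adjusted p = 0.797). With library size alone Hsd17b4 was 0.25 and passed as higher (edgeR adjusted p = 0.0157).

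Peroxisome assembly genes, the peroxins, had 6 tested of 13, with 0 higher and 4 lower, none by 2-fold. Pex19 (ENSMUSG00000003464), the chaperone that brings membrane proteins to the peroxisome, had 58.7, 45.3, 56.5, 57.5 and 59.0 CPM in tumour areas, against 103, 104, 93.8 and 101 CPM in normal areas (-0.86, SE 0.08, edgeR adjusted p = 5.31e-06). Pex13 (ENSMUSG00000020283), part of the docking complex for imported proteins, had 86.3, 78.5, 94.4, 96.6 and 84.6 CPM in tumour areas, against 140, 135, 145 and 138 CPM in normal areas (-0.66, SE 0.06, edgeR adjusted p = 6.63e-06). Neither gene's groups overlapped. Pex7, a receptor for a smaller class of imported enzymes, was lower by a log2 fold change of -0.75 (edgeR adjusted p = 0.024) at under 4 CPM in every area, with overlapping groups. Its adjusted p was 0.0539 by DESeq2, 0.112 with the R areas alone, 0.0926 without tumour L4 and R5, 0.0801 without normal L2 and 0.0826 without normal R1. Pex11g, linked to peroxisome division, had 0.05 (edgeR adjusted p = 0.565), with 41.1% of its exon bases overlapped by the gene Gm44775, and Pex10, a ubiquitin ligase of the import machinery, had 0.28 (edgeR adjusted p = 0.248).

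**Figure D2:**
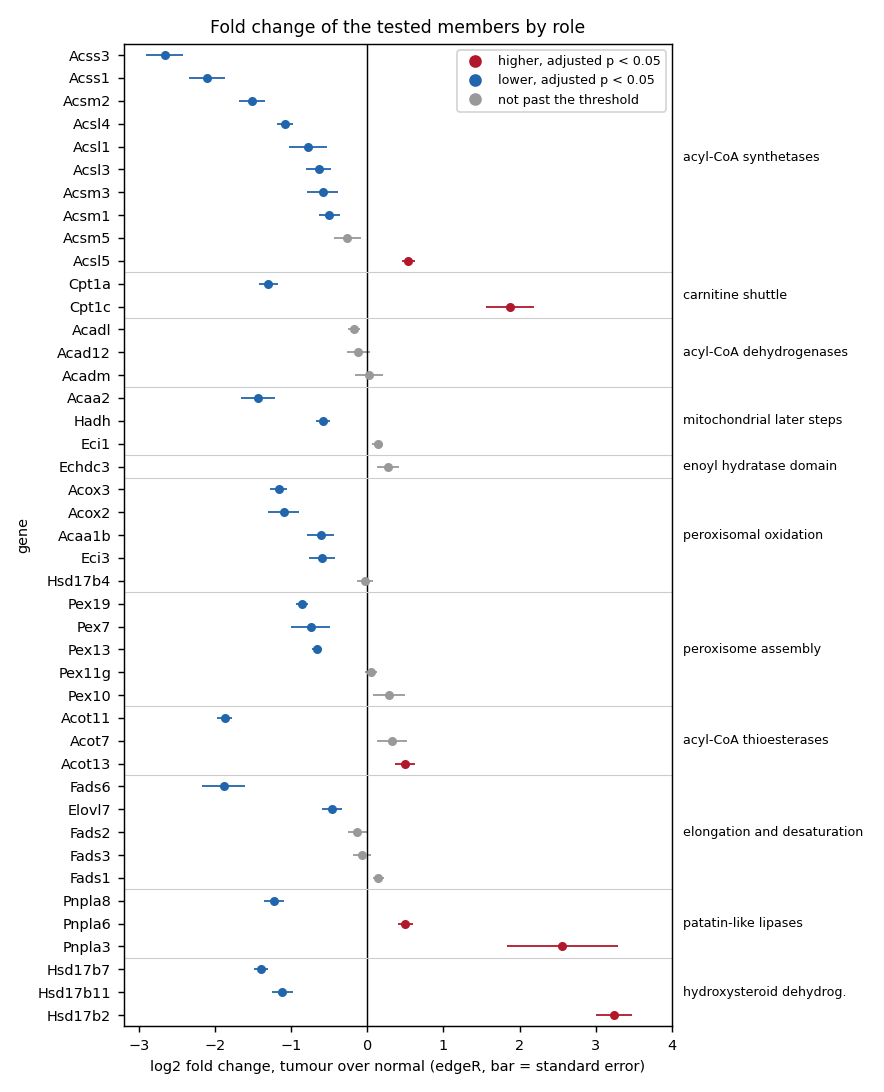
Log2 fold change of tumour over normal areas for 43 of the 44 tested genes, grouped by role, with the edgeR standard error as bars and colour for the call. The lower genes reach -2.66 in Acss3, the 6 higher genes reach 3.24 in Hsd17b2, and the 3 acyl-CoA dehydrogenases lie near 0.

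Thioesterases, which release the fatty acid from coenzyme A, had 3 tested of 5 genes. Acot11 (ENSMUSG00000034853), a long-chain thioesterase known from brown fat, had 55.1, 51.2, 68.1, 71.9 and 65.4 CPM in tumour areas, against 209, 235, 227 and 242 CPM in normal areas. Its groups were far apart (62.3 ± 8.81 CPM in tumour, 228 ± 14.1 CPM in normal areas; -1.87, SE 0.10, edgeR adjusted p = 1.43e-07), but 20.9% of its exon bases overlap the antisense gene Fam151a. Acot13 (ENSMUSG00000006717), a small mitochondrial thioesterase, had 132, 218, 196, 204 and 164 CPM in tumour areas, against 126, 126, 133 and 134 CPM in normal areas. Tumour L4 lay within the normal range and the other tumour areas above it (0.50, SE 0.13, edgeR adjusted p = 0.00509). Acot7, a cytosolic form, had 0.33 (edgeR adjusted p = 0.157).

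Elongation and desaturation genes had 5 tested of 10, with 0 higher and 2 lower. Fads6 (ENSMUSG00000044788), a little-studied member of the desaturase family, had 40.8, 23.0, 81.5, 70.6 and 69.2 CPM in tumour areas, against 207, 209, 210 and 215 CPM in normal areas (-1.89, SE 0.28, edgeR adjusted p = 0.000141). The tumour areas varied among themselves, and all stayed far below the normal ones. Elovl7 (ENSMUSG00000021696), an elongase of long chains, had 307, 462, 450, 472 and 336 CPM in tumour areas, against 568, 571, 538 and 560 CPM in normal areas (-0.46, SE 0.13, edgeR adjusted p = 0.00689), and without tumour L4 and R5 it was -0.27. Fads1, Fads2 and Fads3, neighbours on chromosome 19, did not pass in the TMM fit. Fads1 (ENSMUSG00000010663), the delta-5 desaturase of polyunsaturated chains, had 480, 442, 564, 542 and 508 CPM in tumour areas, against 466, 474, 442 and 450 CPM in normal areas (0.15, SE 0.07, edgeR adjusted p = 0.0964). It passed as higher without tumour L4 (edgeR adjusted p = 0.0483), without tumour R2 (edgeR adjusted p = 0.0159), with upper quartile factors (edgeR adjusted p = 0.0213) and with library size alone (edgeR adjusted p = 6.91e-05). Fads2, the delta-6 desaturase, had -0.13 (edgeR adjusted p = 0.345) and Fads3 had -0.08 (edgeR adjusted p = 0.574).

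Patatin-like lipases, which cut fatty acids from stored fat or membranes, had 3 tested of 6 genes, with 2 higher and 1 lower. Pnpla8 (ENSMUSG00000036257), a calcium-independent phospholipase, had 10.9, 11.4, 17.2, 14.2 and 13.7 CPM in tumour areas, against 35.1, 30.0, 30.2 and 30.8 CPM in normal areas (-1.22, SE 0.14, edgeR adjusted p = 1.54e-05). Pnpla6 (ENSMUSG00000004565), a lysophospholipase known as neuropathy target esterase, had 68.6, 93.1, 98.4, 92.8 and 95.0 CPM in tumour areas, against 64.7, 62.1, 62.0 and 64.8 CPM in normal areas (0.50, SE 0.10, edgeR adjusted p = 0.000951). Tumour L4 stood apart, just above the normal areas. Pnpla3 (ENSMUSG00000041653), or adiponutrin, known from fat and liver, had 40.4, 6.71, 6.72, 5.66 and 16.6 CPM in tumour areas, against 2.38, 3.96, 3.16 and 0.405 CPM in normal areas (2.56, SE 0.73, edgeR adjusted p = 0.00863). Its highest areas were L4 and R5, which also had the highest summed fat cell markers, 728 and 207 CPM, against 15.1 to 33.5 CPM in tumour R2, R3 and R4, and 32.0 to 40.1 CPM in normal areas. Of the 8 fat cell markers 5 were in the table, 3 were tested and 1 was higher. Without tumour L4 Pnpla3 was 1.79 (edgeR adjusted p = 0.00652), and without L4 and R5 it was 1.28 (edgeR adjusted p = 0.0132). Of the exon bases of Pnpla3, 6.8% overlap the gene Gm49513.

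The remaining Hsd17b genes, dehydrogenases of steroids and lipids, had 3 tested of 8, and each changed by more than 2-fold. Hsd17b2 (ENSMUSG00000031844), which turns active estrogens and androgens into weaker forms, had 101, 200, 132, 169 and 110 CPM in tumour areas, against 19.5, 15, 11.6 and 14.4 CPM in normal areas. Every tumour area was several times above every normal area, 9.46-fold on the fitted scale (142 ± 41.5 CPM in tumour, 15.1 ± 3.25 CPM in normal areas; 3.24, SE 0.24, edgeR adjusted p = 1.01e-06). It was the largest rise among the tested genes. Markers of steroid-producing adrenal cells summed to 0 to 0.557 CPM in tumour areas and 0 to 0.216 CPM in normal areas, with 4 of 6 in the table and 0 tested. Star and Hsd3b1 were not in the table, and Cyp11b2 had no count in any library. A 0 in the table is no proof of absent RNA, so the presence of such cells was not tested.

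Hsd17b7 (ENSMUSG00000026675), an enzyme of cholesterol synthesis, had 76.4, 74.2, 94.8, 101 and 78.8 CPM in tumour areas, against 224, 233, 225 and 215 CPM in normal areas (-1.40, SE 0.09, edgeR adjusted p = 5.37e-07). Hsd17b11 (ENSMUSG00000029311), an enzyme of lipid droplets, had 372, 337, 539, 528 and 522 CPM in tumour areas, against 946, 1010, 1037 and 993 CPM in normal areas (-1.12, SE 0.14, edgeR adjusted p = 4.12e-05). Neither gene's groups overlapped.

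**Figure D3:**
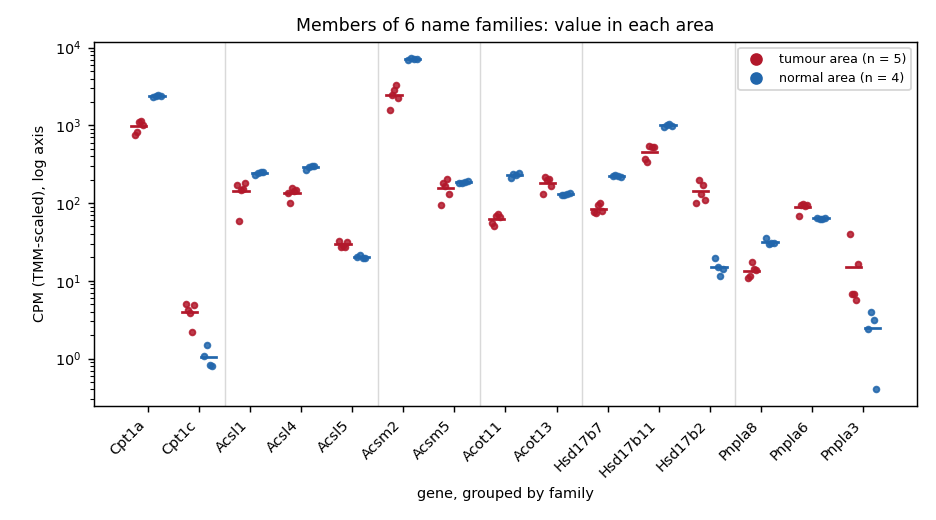
CPM (log axis) of 15 genes from 6 name families in each tumour area (left points) and normal area (right points), with a line at each mean. Within the Cpt1, Acsl, Acot, Pnpla and Hsd17b families some genes lay higher and others lower in tumour areas, as with Cpt1c and Cpt1a.

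The counts of 2 genes of the same library can be divided by each other, which needs no scaling. The pairs were picked after the values were seen, so the ratios have no test, and they show unequal change and not which gene moved. The ratio of Acsm2 to Acsm5 counts was 16.2 ± 1.52 in tumour and 38.2 ± 1.2 in normal areas. Cpt1a to Acadm was 0.627 ± 0.0731 in tumour and 1.54 ± 0.112 in normal areas, so the tumour areas held fewer reads of the entry step per read of the dehydrogenase. Acox3 to Hsd17b4 was 3.16 ± 0.261 in tumour and 6.95 ± 0.249 in normal areas. Fads6 to Fads1 was 0.110 ± 0.0396 in tumour and 0.460 ± 0.0194 in normal areas. The groups did not overlap in any of these ratios.

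**Figure D4:**
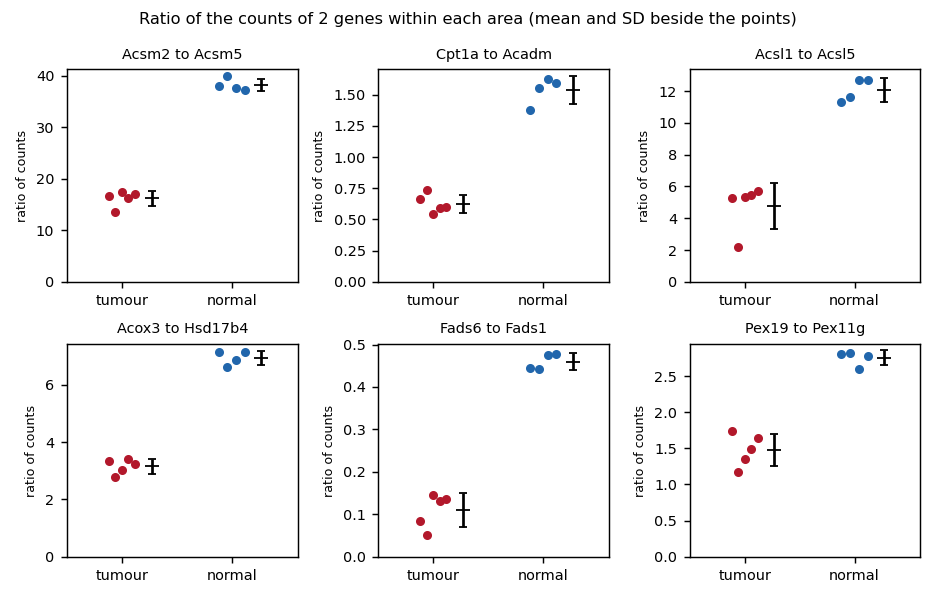
Ratio of the counts of 2 genes in each tumour area (left) and normal area (right) for 6 pairs, with the mean and SD beside the points and axes from 0. In each panel the tumour points lie below the normal ones, for example 0.627 against 1.54 for Cpt1a to Acadm.

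The genes that could not be tested include well-known steps. The 19 with no count were Acad8, Acad10, Acads, Acot5, Acot9, Acsl6, Cpt1b, Ech1, Echdc1, Echs1, Elovl6, Hsd17b3, Hsd17b12, Hsd17b14, Pex5, Pex6, Pex16, Pex26 and Pnpla5. Several of these, such as Echs1, the main mitochondrial enoyl-CoA hydratase, and Pex5, the main import receptor of peroxisomes, are used by nearly every cell, so a 0 in the table is no proof of absent RNA. Genes without a count were 23.2% of the 82 and 28.4% of the table. Hadha and Hadhb, the subunits of the mitochondrial trifunctional protein, had 4 and 0 counts over all tumour areas and 2 and 1 over all normal areas. With no filter on low counts, 4 of the low genes passed: Elovl4, an elongase of very long chains, with 75 counts in tumour and 7 in normal areas (2.85, edgeR adjusted p = 0.000577), Hsd17b1, which makes estradiol, with 47 counts in tumour and 12 in normal areas (1.40, edgeR adjusted p = 0.0337), Pex5l, a neuronal relative of Pex5, with 4 counts in tumour and 15 in normal areas (-2.21, edgeR adjusted p = 0.0149), and Decr2, a peroxisomal reductase, with 32 counts in tumour and 44 in normal areas (-0.95, edgeR adjusted p = 0.039).

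Of a list of 62 other genes of the same pathways, 52 were in the table and 39 were tested. Of these 39, 9 were higher (23.1%) and 23 lower (59.0%), where 39.3% of all tested genes were higher and 35.3% lower. The median log2 fold change was -0.48, against 0.06 for all tested genes. With library size alone 14 were higher and 15 lower, where 68.9% of the calls over all genes were higher. Ppara, the receptor named above, had 10.7, 13.1, 14.2, 19.0 and 12.6 CPM in tumour areas, against 91.1, 106, 78.9 and 101 CPM in normal areas. Its groups were wide apart, 13.9 ± 3.11 CPM in tumour and 94.1 ± 11.8 CPM in normal areas (-2.76, SE 0.15, edgeR adjusted p = 1.93e-07). Both tested carnitine carriers were lower: Slc22a5, which brings carnitine into the cell, fell by 1.27 (edgeR adjusted p = 4.28e-06) and Slc25a20, which carries acylcarnitine into mitochondria, fell by 0.84 (edgeR adjusted p = 3.01e-06).

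Fabp3, a fatty acid binding protein, had 4.32, 5.20, 9.99, 8.71 and 11.9 CPM in tumour areas, against 31.4, 26.9, 31.2 and 29.8 CPM in normal areas (-1.89, SE 0.25, edgeR adjusted p = 5.85e-05). Abcd3, a peroxisomal membrane transporter of acyl chains, had 504, 457, 754, 778 and 704 CPM in tumour areas, against 1666, 1704, 1757 and 1697 CPM in normal areas (-1.42, SE 0.15, edgeR adjusted p = 1.42e-05). Both had tumour areas entirely below the normal ones. Of 10 tested peroxisomal enzymes outside the name rule 1 was higher and 6 were lower, among them Cat (catalase), which fell by 0.75 (edgeR adjusted p = 0.000757). These 6 include Slc27a2, a synthetase for very long chains (-0.38, edgeR adjusted p = 0.0494), whose call was lost under 10 alternatives, among them without tumour R2 or R5 and without any 1 normal area (edgeR adjusted p = 0.0746 to 0.102), and without L4 it was -0.25. They also include Dao, the D-amino acid oxidase (-0.51, edgeR adjusted p = 0.0331), whose call was lost under 9, among them without tumour R2 or R5 or normal L2, R1 or R2 (edgeR adjusted p = 0.0608 to 0.0748).

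Of 6 tested genes of fatty acid synthesis on the list, 2 were higher and 3 lower. The lower ones were Acly, which makes cytosolic acetyl-CoA (-1.19, edgeR adjusted p = 3.28e-06), Oxsm, of mitochondrial fatty acid synthesis (-0.48, edgeR adjusted p = 0.000421), and Acaca, the acetyl-CoA carboxylase (-0.86, edgeR adjusted p = 0.0445). Acaca's call was lost without any 1 of tumour R2, R3, R4 and R5 or of the normal areas (edgeR adjusted p = 0.0655 to 0.0915), and without L4 it was -1.32. Scd1, the desaturase that makes monounsaturated chains, had 7085, 3702, 4347, 3889 and 3059 CPM in tumour areas, against 1302, 1143, 1049 and 956 CPM in normal areas (1.99, SE 0.23, edgeR adjusted p = 2.3e-05). All tumour areas were above all normal ones, with L4 the highest. Fasn, the fatty acid synthase, had 640, 142, 134, 157 and 246 CPM in tumour areas, against 102, 106, 101 and 100.2 CPM in normal areas (1.37, SE 0.45, edgeR adjusted p = 0.0186). Without L4 Fasn was 0.74, and without L4 and R5 it was 0.51. Pparg, a regulator of fat cells, had 26.9, 6.71, 4.18, 4.5 and 9.59 CPM in tumour areas, against 1.51, 2.59, 2.66 and 1.62 CPM in normal areas (2.28, SE 0.62, edgeR adjusted p = 0.00659). Without L4 Pparg was 1.54, and without L4 and R5 it was 1.25. Abcd2, a peroxisomal transporter of very long chains, had 74.1, 5.71, 4.90, 6.53 and 22.4 CPM in tumour areas, against 3.68, 6.41, 7.14 and 2.63 CPM in normal areas (2.17, SE 0.87, edgeR adjusted p = 0.0418). Only L4 and R5 lay above the normal areas: without L4 it was 0.97 (edgeR adjusted p = 0.109), and without both it was 0.17 (edgeR adjusted p = 0.619). Its call was also lost without R5 (edgeR adjusted p = 0.0622) and without any 1 normal area (edgeR adjusted p = 0.0646 to 0.101).

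Tumour areas differed among themselves. The median coefficient of variation of the 44 genes was 21.2% across tumour areas and 3.87% across normal areas, and for all tested genes it was 14.5% across tumour areas and 6.69% across normal areas. Among tumour areas, L4 was the lowest for 24 of the 44 genes (54.5%, against 28.7% of all tested genes) and R2 for 17 (38.6%, against 19.4%). R4 was the highest for 19 (43.2%, against 22.7%). The median log2 level relative to the normal mean was -0.81 in L4, -0.59 in R2, -0.34 in R3, -0.23 in R4 and -0.45 in R5. Summed proximal tubule markers were 7305, 8963, 12950, 14796 and 12190 CPM in the same areas, also lowest in L4 and highest in R4, with 10 of 11 tested markers lower in tumour areas and 1 higher.

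Distal tubule and collecting duct markers summed to 1518 to 6826 CPM in tumour areas and 10449 to 10711 CPM in normal areas, with 5 of 6 tested lower. Much of this sum was Umod, the tested marker that did not pass (edgeR adjusted p = 0.0584). Umod had 1220 to 5306 CPM in tumour areas and 5062 to 5990 CPM in normal areas. Of the 9 listed markers 7 were in the table, and Scnn1a had no count. Macrophage and dendritic cell markers summed to 763 to 1934 CPM in tumour and 86.4 to 111 CPM in normal areas, with 4 of 5 tested higher. B and plasma cell markers summed to 312 to 843 CPM in tumour and 2.83 to 5.19 CPM in normal areas, with 4 of 4 tested higher. T cell markers, with 3 of 3 tested higher, summed to 100.4 to 251 CPM in tumour and 5.81 to 9.55 CPM in normal areas. Urothelium markers, with 5 of 5 tested higher, summed to 39.2 to 1207 CPM in tumour and 0.498 to 5.32 CPM in normal areas, with the top value in L4. Endothelium and fibroblast markers summed to 958 to 2603 CPM in tumour and 644 to 692 CPM in normal areas, with 3 of 8 tested higher and 4 lower. The part of these cell types in the results was not tested.

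**Figure D5:**
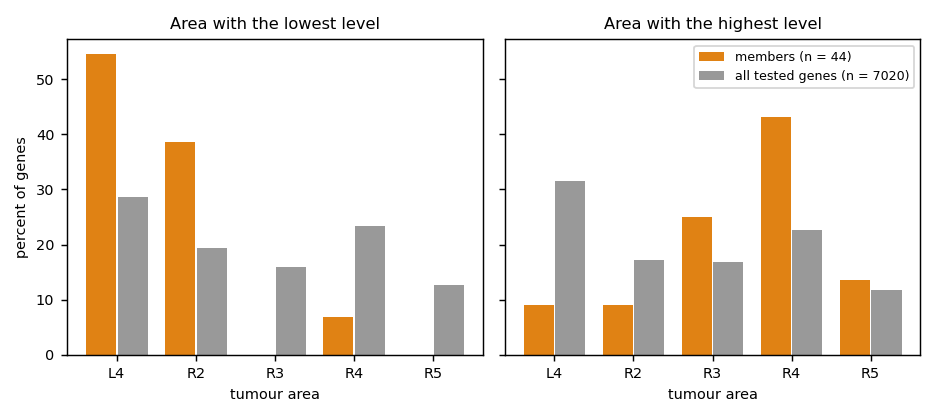
Percent of genes for which each tumour area had the lowest (left) or highest (right) level among the 5, for the 44 tested genes (orange) and all 7020 tested genes (grey). L4 and R2 take most of the lowest values of the 44 genes (54.5% and 38.6%), and R4 most often the highest (43.2%).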

How the data were processed

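RNA was measured in 5 tumour and 4 normal areas. The values deposited by the authors are unnormalized whole-number counts of reads per gene in 9 libraries; mm9, STAR 2.3, HTSeq and edgeR are given as build and tools per the submitters' processing notes. For annotation, strand setting and filters the sources used here say nothing, and the kit named in the labels does not mark strand. A symbol was found for 14026 of 14052 identifiers, leaving 26 without.

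Counts were fitted with edgeR 4.0.16 in R 4.3.3: filterByExpr by group (minimum count 10, minimum total 15), TMM factors, a quasi-likelihood test on group, and Benjamini-Hochberg adjustment over the 7020 tested genes, with calls at an adjusted p under 0.05. SE is the fold change over the square root of F. Alternatives were RLE and upper quartile factors, library size alone, no filter, at least 1 CPM in 4 areas, DESeq2 1.42.0, limma-voom (limma 3.58.1), the area letter as a covariate, R areas only, and areas left out.

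The members and lists were chosen with earlier results of these data known. Values in every area are given, within each role, for up to 2 called genes with the largest rise and 2 with the largest decrease (averaging 10 CPM or more in whichever group was higher) and for the tested gene with the most reads; for the other pathway genes, up to 4 each way. Some genes that enter the counts are not reported here by name. Other genes with such values were chosen after their values were seen, namely Acsl1, Acsl4, Acsm5 and Cpt1c. A later annotation (GRCm38) served for symbols, neighbours, overlaps and shared 50-base stretches, and RefSeq windows (GRCm38.p6) for promoter sequences and motifs. Figures used Python 3.11.15 and matplotlib 3.10.9.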

Additional observations from a re-analysis of the deposited data

Results flagged for a closer look

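A sample stood far from the rest of its group, by Dixon's 95% criterion, in 6 of 88 groups tested (6.82%), where chance gives about 1 in 20. Acsl1 was 58.6 CPM in tumour R2, against 149 to 179 CPM elsewhere in the tumour group, and 227.0 CPM in normal L1, against 247 to 250 CPM in the other normal areas. Pex19 was 45.3 CPM in tumour R2, against 56.5 to 59.0 CPM in the other tumour areas. Pnpla6 was 68.6 CPM in tumour L4, against 92.8 to 98.4 CPM in the other tumour areas. Echdc3 was 82.2 CPM in normal L2, against 78.7 to 79.2 CPM in the other normal areas. Pnpla8 was 35.1 CPM in normal L1, against 30.0 to 30.8 CPM in the other normal areas.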

How the results depend on the processing

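With library size alone, 13 genes were higher and 16 lower, against 6 and 25 with TMM, and 14 other pathway genes were higher and 15 lower, against 9 and 23. Of the calls over all genes 68.9% were then higher, against 52.7% with TMM. Among the 9 calls lost there were those of Acaa1b, Acsl1, Acsl3, Acsm1, Acsm3, Eci3, Elovl7 and Pex7. Hsd17b4 turned to 0.25, Far1 to 0.26 and Scd2 to 0.27, and all passed as higher (edgeR adjusted p = 0.0157, 0.000965 and 0.00367). Acot7, Echdc3, Eci1, Fads1, Pex10 and Pex11g, uncalled with TMM, also passed as higher with library size alone. The setting changes only the scaling, which moves all genes together. Under the other settings the calls numbered 6 to 8 higher and 23 to 27 lower. All 6 higher genes and 16 of the 25 lower genes kept their call under every alternative run, and 4 of the 13 uncalled genes stayed uncalled. Of the other pathway genes, 7 of 9 higher and 15 of 23 lower kept theirs. No paired analysis was possible because tumour and normal areas came from animals of different genotype, and the area names do not pair them. The 19 genes with few counts could not be tested at this depth, and why 19 others had none was not tested.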
